A study of Mus musculus with 8 samples.

Results

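The 10 genes described here carry the cell's answer to lipopolysaccharide (LPS) and to related microbial products: Tlr4, Tlr2, Tlr9, Cd180, Ly86, Ly96, Cd14, Myd88, Ticam1 and Irak2. They were chosen by name for their known roles, from 21938 protein-coding genes that could be placed on the contact maps. Earlier results of these data were known at that time. Each gene was followed through the 50 kb bin that holds its start and the chromosome within 2 Mb on each side. The maps came from in situ Hi-C. There, MboI cuts the crosslinked chromatin inside the nucleus and ends that lie close together are ligated, and each sequenced read pair is then a contact of one place in the genome with another. All 8 libraries were described as splenic B cells of male mice 6 to 12 weeks old, stimulated with 25 µg/ml LPS, and each of the 4 groups held 2 biological replicates. The 3 h, 10 h and 33 h imminent division cells were C57BL/6 and were sorted as CD69+ cells with the highest CellTrace Violet signal, that is, activated and undivided. The 33 h pre-S cells came from C57BL/6 FUCCI mice, whose fluorescent proteins mark cell cycle phase, and were gated further to cells before DNA synthesis, so strain and gate cannot be told apart from that group. The study's methods name a C57BL/6 Pep3b background for the animals in general, and the labels do not name Pep3b. Every group had received LPS, so the first comparison starts from cells already stimulated for 3 h.

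LPS is sensed on the cell surface by TLR4, which needs the small secreted protein MD-2, encoded by Ly96, to hold the lipid, while CD14 delivers LPS to that complex. B cells also carry RP105, the product of Cd180, a TLR4 relative that lacks a signalling domain and travels to the surface with MD-1, the product of Ly86. TLR2 binds bacterial lipoproteins, and TLR9 detects unmethylated CpG DNA inside endosomes. MyD88 is the adaptor of most Toll-like receptors, TRIF (Ticam1) is an adaptor of TLR3 and TLR4, and IRAK2 is a kinase recruited below MyD88. RNA levels of these genes were not analysed here.

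The libraries held 88703088 to 218945191 read pairs, 70.92% to 75.06% of the autosomal ones joined places on the same chromosome, and a member's start bin had between 703 and 5131 read pairs within 2 Mb. Imminent division replicate 2 stood apart from the other libraries, with 3.74% of its read ends on X and 0.0490% on Y, against 2.39% to 2.84% and 0.0804% to 0.123% in the other 7. More X and less Y than in the other libraries goes against its description as male. The part of that library's difference in the results was not tested, and the counts of members, pairs and pathway genes that passed at imminent division against 10 h are given with and without it. The cell type label could be checked only weakly, since the start bins of all 8 B cell markers, all 6 T cell markers and all 5 myeloid markers lay in the active compartment in every library. The 10 h cells were compared with those at 3 h, each 33 h group with 10 h, and the 33 h groups with each other. The comparisons of the 33 h groups with 10 h share the 10 h libraries and are not independent. The imminent division libraries were the deepest of the 8, at 180325399 and 218945191 read pairs, against 117386199 and 105015427 at pre-S. More reads let smaller changes pass, so the counts that passed in the comparisons with 10 h are not on equal terms. The part of depth in them was not tested.

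The neighbourhoods differed widely (coordinates on GRCm38). The start bins of Tlr4 (chr4:66799935-66849663), Tlr2 (chr3:83800006-83850054), Cd180 (chr13:102649852-102699999) and Ly86 (chr13:37299831-37349270) held no other protein-coding start. Those of Tlr9 (chr9:106199490-106250084), Ly96 (chr1:16650424-16699793), Cd14, Myd88 (chr9:119299683-119350387), Ticam1 (chr17:56249825-56299820) and Irak2 (chr6:113600406-113650045) held 3 or 4 starts each, Tlr9 together with Alas1, Ppm1m and Twf2 and Irak2 together with Brk1, Fancd2os and Vhl. A contact of such a bin cannot be given to one of its genes. Within 2 Mb, Tlr4 had 3 protein-coding starts, the fewest of the 10, and Cd14 had 121, the most.

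Ly86 had the largest change of contacts from one side of its start to the other, and for that reason the letters around it are given first. Both strands of the kept bins were searched for CCA, any 2 bases, AG, any 2 bases and GGC in a row, a short core of the sequence that the insulator protein CTCF binds. Of 47332 bins, 83.5% held at least 1 match (median 2) and 42.8% held 3 or more. Bins with at least 3 matches on the minus strand only made up 2.65%, and those with at least 3 on either strand alone 5.29%. The Ly86 start bin held 3 matches, all on the minus strand and none on the plus strand. The minus-only class is the pattern of this bin, which was picked by its contact change. Its share is therefore a description and no test. Those 3 windows of 30 bases are printed here 5′ to 3′ on the matched strand with the match in capitals:
Ly86 start bin, chr13:37307515-37307544 (minus): caatcccagCCATGAGAAGGCtaaggtaga
Ly86 start bin, chr13:37312732-37312761 (minus): tcgatgataCCACCAGATGGCgatgttggc
Ly86 start bin, chr13:37340089-37340118 (minus): cttcttaccCCAACAGCAGGCatgaaaagc

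All 3 lie before the Ly86 start, at 37684, 32467 and 5110 bases from it, in no protein-coding gene. The 6 bins whose contact with Ly86 strengthened at imminent division, described below, hold 11 matches together, 5 on the plus strand and 6 on the minus strand. Those in the 3 nearest bins are printed to show the letters close to the gene, and the farther bins hold 2 of the plus-strand and 5 of the minus-strand matches:
bin 100 kb away, chr13:37221416-37221445 (plus): cacataagcCCACCAGGTGGCcaggtcctt
bin 100 kb away, chr13:37222710-37222739 (plus): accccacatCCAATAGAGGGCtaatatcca
bin 150 kb away, chr13:37149993-37150022 (plus): ggtgttaccCCATTAGAAGGCcttccctag
bin 200 kb away, chr13:37127946-37127975 (minus): gaaaggagcCCAAGAGAAGGCacaagaatc
These are letter matches, and binding was not measured. The other members' start bins held 2 to 14 matches on both strands together, with at least 1 on each strand in every one.

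The first measure was the sum of a start bin's contacts within 2 Mb, normalised between libraries so that the typical bin did not change. Between 10 h and imminent division the sums of Tlr4, Ly86 and Ly96 rose and those of Tlr9, Ticam1 and Irak2 fell, 6 of 10 members, at a false discovery rate (FDR) of 5% in the edgeR quasi-likelihood test with Benjamini-Hochberg adjustment over 13253 start bins. Of all start bins 44.1% passed in that comparison (22.2% higher, 21.9% lower). With TMM factors, and likewise with DESeq2, 1 member was higher and 5 were lower in place of 3 and 3. Over all cis distances, with the same offsets, 5 were higher and 1 lower. The balance of directions thus depends on the scaling and on the distances counted. With TMM factors and with DESeq2, Tlr2 and Cd180 passed as lower and Ly86 and Ly96 did not pass. The members' median log2 change was −0.04, and that of all start bins was 0.00. Without imminent division replicate 2, 5 of the 6 passed, and Ly96 did not (FDR 0.171).

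Among the LPS receptors on the surface, the Tlr4 start bin had normalised sums (in read pairs) of 1247 and 1245 at 3 h, 1168 and 1189 at 10 h, then 1310 and 1327 at imminent division against 1335 and 1206 at pre-S. Both imminent division libraries lay above both 10 h libraries. The rise from 10 h was 0.16 on the log2 scale (SE 0.0474, FDR 0.00987), and it was lost when 10 h replicate 1 was left out (FDR 0.0767) and when 10 h replicate 2 was. With TMM factors the rise was 0.34 (FDR 0.000574). The change from 10 h to pre-S was 0.11 (FDR 0.10), which passed with TMM factors (0.295, FDR 0.00247), with DESeq2 (FDR 0.00126) and over all cis distances (0.18, FDR 0.01). Ly96, which encodes the lipid-binding partner of TLR4, had 1762 and 1833 at 10 h and 1926 and 1962 at imminent division, a log2 change of 0.11 (FDR 0.0443) that passed in only 2 of the 8 sets with 1 library left out. Cd14 had 1844, 1865, 1821, 1852, 1859, 1829, 1775 and 1839 in the same order of libraries, which overlapped between 10 h and imminent division (log2 0.005, FDR 0.929), though over all cis distances it passed as higher there (0.10, FDR 0.0311). Interchromosomal contacts of the Ly96 bin moved too, by −0.16 on the log2 scale between 10 h and imminent division. With bin coverage in the offsets the Ly96 sum changed by 0.28 at imminent division (FDR 2.54e-05) and by 0.21 at pre-S (FDR 0.00558), while with 1 Mb on each side it did not pass at imminent division (FDR 0.135).

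RP105 and MD-1 work as a pair. The Ly86 sum was 2888 and 2928 at 3 h, 2728 and 2738 at 10 h, then 2971 and 3118 at imminent division against 3023 and 2995 at pre-S. The 10 h libraries were the lowest of the 8. The log2 change was 0.16 at imminent division (SE 0.0364, FDR 0.00197) and 0.14 at pre-S (FDR 0.00933, lost without either 10 h library and without pre-S replicate 1), but both turned to −0.03 and −0.02 with TMM factors in place of the offsets, and to −0.02 and −0.02 with DESeq2, so the direction of the Ly86 sum depends on the normalisation. Cd180 had 2671, 2737, 2685, 2708, 2582, 2626, 2622 and 2687, with a log2 change of −0.05 at imminent division that did not pass with the offsets (FDR 0.264). With TMM factors it passed as lower at imminent division (−0.205, FDR 0.00115) and at pre-S (−0.16, FDR 0.00638), as it did with DESeq2 (FDR 7.53e-05 and 0.00473). With the offsets and 1 Mb on each side it passed as lower too (−0.13, FDR 0.0114, and −0.16, FDR 0.007), and over all cis distances at pre-S alone (−0.08, FDR 0.0431). With bin coverage in the offsets the Cd180 changes were above 0, at 0.07 (FDR 0.251) and 0.09 (FDR 0.187). Contacts above the distance curve gave −0.04 (FDR 0.444) and 0.03 (FDR 0.573). Interchromosomal contacts of the Cd180 bin moved by −0.10 and −0.20 on the log2 scale. The contrast between the sums of the 2 genes thus depends on the normalisation and the window.

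The other receptors and the signalling genes were lower or did not pass. Tlr9 had 2243 and 2192 at 10 h and 1986 and 1964 at imminent division, a fall of 0.17 on the log2 scale (FDR 0.00174). Tlr2 had its highest sums at 3 h, 2594 and 2428, followed by 2240 and 2316 at 10 h, and with the offsets 0 of the 4 comparisons passed for it in edgeR. Its change at imminent division (−0.03, FDR 0.604) passed as lower with TMM factors (−0.125, FDR 0.0344) and DESeq2 (FDR 0.0376), and as higher over all cis distances (0.12, FDR 0.00782). Ticam1 had 2261, 2262, 2272 and 2361 at 3 h and 10 h, then 2026 and 1913 at imminent division against 2063 and 2086 at pre-S. All 4 libraries at 33 h were below the 4 earlier ones. Its log2 change was −0.24 at imminent division (SE 0.0398, FDR 0.000146), the largest of the 10 in size, and −0.16 at pre-S (FDR 0.00683, lost without 10 h replicate 2 and without pre-S replicate 1).

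Irak2 followed the same order, with 2216, 2263, 2200 and 2215 at the early times, then 1989 and 1923 at imminent division against 2098 and 2077 at pre-S. Its log2 change was −0.18 at imminent division (SE 0.0379, FDR 0.00112) and −0.08 at pre-S (FDR 0.126), where it passed as lower with TMM factors (−0.14, FDR 0.0118), with DESeq2 (FDR 0.0272) and over all cis distances (FDR 0.0315). Myd88 had 1730 and 1723 at 10 h and 1627 and 1633 at imminent division, which did not overlap, and its log2 change of −0.08 did not pass (FDR 0.145), but that of contacts above the distance curve did (−0.22, FDR 0.000331). Counting all distances on the chromosome in place of 2 Mb ended the calls of Ticam1 (log2 −0.05, FDR 0.257) and Tlr9 (−0.08, FDR 0.0559) at imminent division, and counting only contacts above the distance curve ended those of Ticam1 (FDR 0.517), Irak2 (FDR 0.0949), Ly86 (FDR 0.0751) and Ly96 (FDR 0.363). With bin coverage in the offsets Ly86 did not pass either (0.10, FDR 0.107). The falls of Tlr9, Ticam1 and Irak2 and the rise of Ly86 at imminent division passed with each of the 8 libraries left out.

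**Figure D1:**
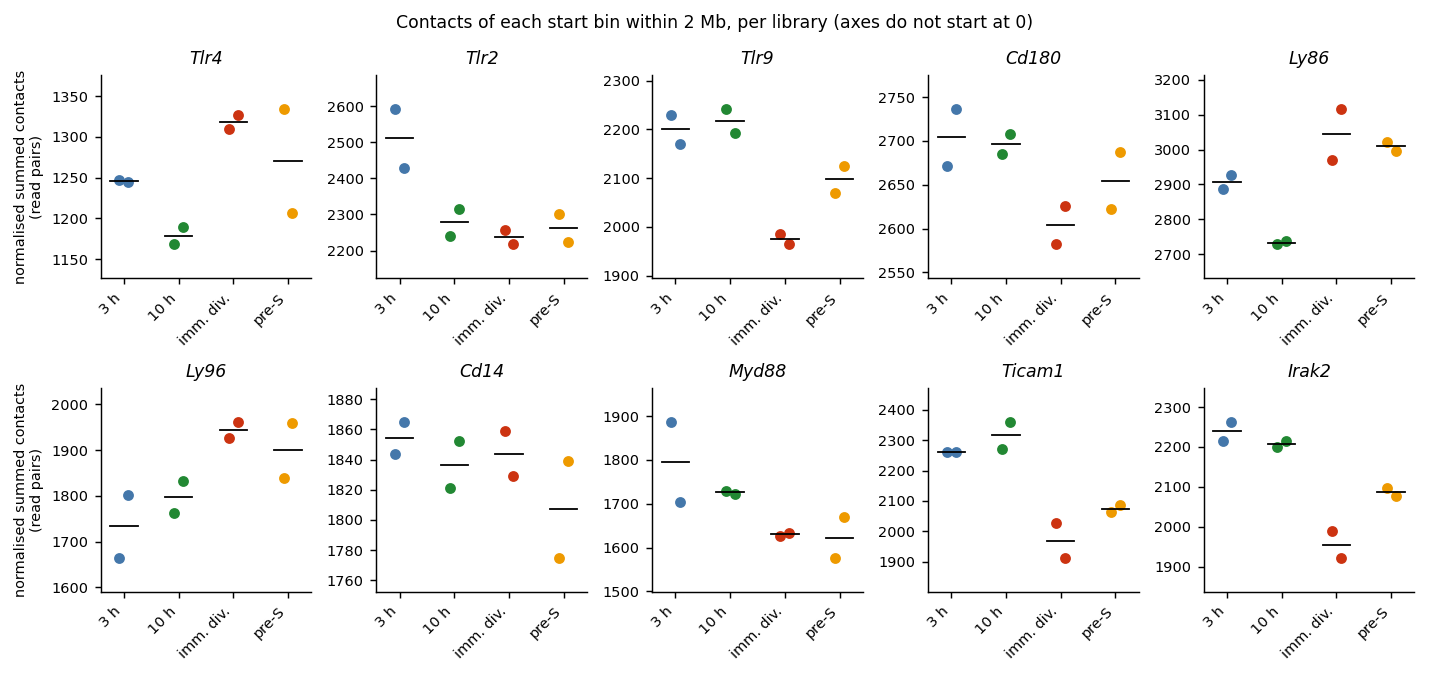
Normalised contacts of each member's start bin within 2 Mb, in read pairs (vertical axes, which do not start at 0 and differ between panels), for the 2 libraries of each group (points) with their mean (line). Ticam1, Irak2 and Tlr9 are lowest at imminent division, while Ly86 has its 2 lowest points at 10 h.

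In pre-S cells 2 of 10 members passed against 10 h, Ly86 and Ticam1 (37.3% of start bins passed). The Ticam1 call ended with contacts above the distance curve (−0.05, FDR 0.40), and the Ly86 call with 1 Mb on each side (FDR 0.132) and over all cis distances (FDR 0.11). With TMM factors, and likewise with DESeq2, Tlr4 was higher there and Tlr9, Cd180, Ticam1 and Irak2 were lower, and over all cis distances the same held without Tlr9. Between 3 h and 10 h edgeR called 0 members against 0.0679% of start bins, with 2 at an unadjusted p under 0.05 and 0 called by DESeq2. Imminent division against pre-S gave 0 members in edgeR and in DESeq2, with 2 and 0 at an unadjusted p under 0.05, and 4.08% of start bins.

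Single partner bins were tested next. Of the pairs between a member's start bin and a bin within 2 Mb, 482 were frequent enough to test. Between 10 h and imminent division 25 passed, 8 stronger and 17 weaker, which is 5.19% of the 482, beside 3.37% of the pairs of all start bins (0.824% stronger, 2.55% weaker). They belonged to 9 of the 10 members, all but Ly96, and 63.8% of all start bins had at least 1 such pair. The pairs rest on few reads and on the 10 h libraries: 7 pairs passed in all without 10 h replicate 1, 4 without 10 h replicate 2, 12 without imminent division replicate 1 and 16 without imminent division replicate 2, and 0 of the 25 passed with each of the 8 libraries left out in turn. Without imminent division replicate 2, 12 of the 25 passed. DESeq2 called 0 of the 482 (41 at an unadjusted p under 0.05, 297 without an adjusted p).

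At Ly86 the near partners at lower coordinates and the partners at higher coordinates changed in opposite directions. Its 12 tested partners within 600 kb at lower coordinates, the side before the gene's start, all had a log2 change above 0 at imminent division against 10 h (median 0.69), and 6 passed. Its 29 tested partners at higher coordinates, counted out to 2 Mb, all had a change below 0 (median −0.56). The 2 that passed lay far out, at 1200 kb and 1250 kb. Farther out at lower coordinates, 9 of 28 partners had a change above 0 and 19 below (median −0.185), so that whole side had 21 above and 19 below, and there the bin at 1450 kb passed as weaker (log2 −1.09, FDR 0.0124, lost without 10 h replicate 1 and without imminent division replicate 1). Without imminent division replicate 2, 11 of the 12 had a change above 0 (median 0.53, 2 passed) and 28 of the 29 one below 0 (median −0.64, 3 passed). The limit of 600 kb was set after the values were seen, and neighbouring bins are not independent. At pre-S against 10 h, 11 of the 12 had a change above 0 (median 0.30) and 25 of the 29 one below 0 (median −0.41), and none of these passed. The lower-coordinate share of all Ly86 contacts within 2 Mb was 51.8% and 52.7% at 3 h, 55.5% and 53.5% at 10 h, then 63.8% and 63.0% at imminent division. Both pre-S libraries also lay above all 4 earlier ones.

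The bin 150 kb before Ly86 (chr13:37149767-37200101), which holds no protein-coding gene and the third of the plus-strand matches printed above, had 51.8 and 53.1 normalised read pairs with it at 3 h, 33.5 and 42.9 at 10 h, then 87.0 and 70.1 at imminent division against 47.9 and 44.0 at pre-S. The imminent division libraries were the highest of the 8. The log2 change was 1.01 against 10 h (SE 0.193, FDR 0.000365), which missed the threshold without 10 h replicate 1 (FDR 0.0533), and 0.76 against pre-S (FDR 0.0412), which passed in 3 of the 8 sets with 1 library left out. The bin 200 kb before Ly86 went from 44.3 and 38.2 at 10 h to 79.9 and 74.1 at imminent division (log2 0.91, FDR 0.00158, lost without 10 h replicate 2). Outside the 3 partners with the smallest p of each member, the pairs below were named after their values were seen. The bins 100 kb, 250 kb, 350 kb and 600 kb before Ly86 strengthened by 0.69, 1.00, 0.70 and 0.80 on the log2 scale, all 4 losing the call without imminent division replicate 2 and without at least 1 of the 10 h libraries. The bin at 250 kb holds the start of F13a1, the A subunit of coagulation factor XIII, and that at 600 kb the start of Nrn1, which encodes the neuronal protein neuritin.

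On the other side, the bin 1250 kb beyond Ly86, within Bloc1s5 (a subunit of a complex in the making of lysosome-related organelles), had 28.6 and 36.1 normalised read pairs at 10 h and 10.7 and 10.4 at imminent division. The 2 groups did not overlap, and the log2 change was −1.63 (SE 0.306, FDR 0.000265, lost without 10 h replicate 2). The neighbouring bin at 1200 kb, which holds the start of Txndc5, a protein disulfide isomerase of the endoplasmic reticulum, changed by −1.21 (FDR 0.00413, lost without either 10 h library and without imminent division replicate 1). Interchromosomal contacts of the Ly86 bin differed by 0.08 on the log2 scale between 10 h and imminent division, and with bin coverage in the offsets the 150 kb pair changed by 0.72 (FDR 0.0192) and the 1250 kb pair by −1.76 (FDR 2.41e-05). The pairs at 100 kb (FDR 0.0512), 600 kb (FDR 0.0846) and 350 kb (FDR 0.186) did not pass with bin coverage, nor did the 150 kb pair against pre-S (0.42, FDR 0.293).

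**Figure D2:**
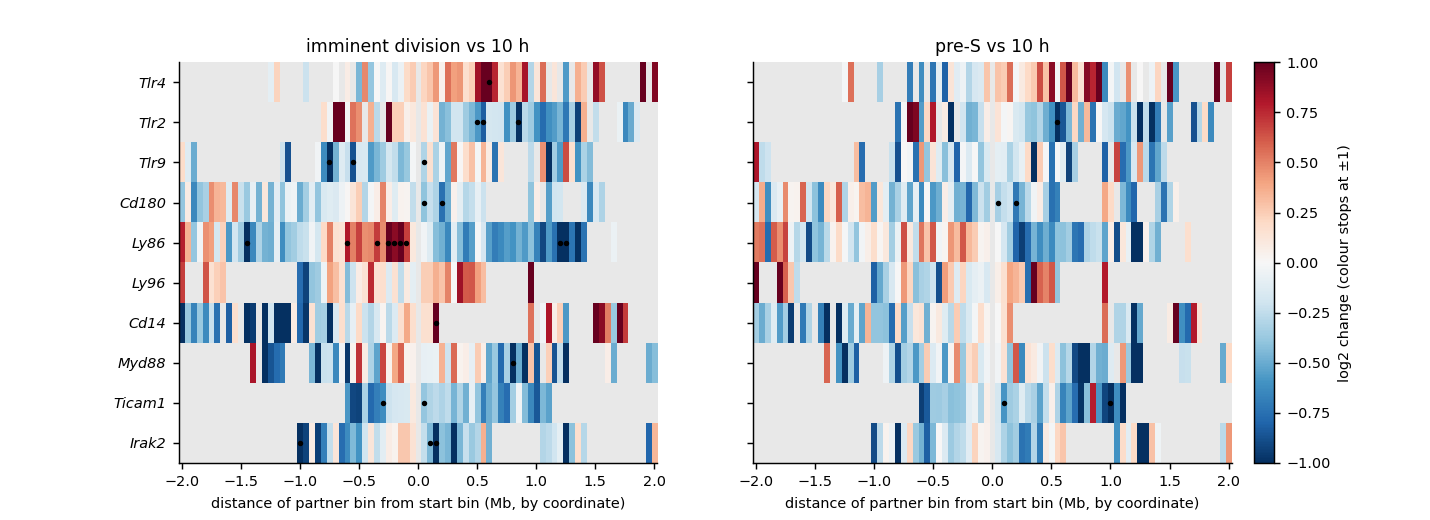
Log2 change of contacts between each member's start bin and its partner bins within 2 Mb, by distance in coordinates (horizontal axis, Mb). The panels show imminent division against 10 h and pre-S against 10 h. The colour scale stops short of the largest changes. At imminent division against 10 h the Ly86 partners on the near lower-coordinate side are stronger and those at higher coordinates weaker, and 25 pairs passed over all members.

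Ly86 also made the most frequent long contact relative to distance. Contacts were divided by the mean of all bin pairs at the same distance, and the highest partners from 150 kb on were picked by these values, so they are a description. The bin 1300 kb before Ly86 (chr13:35999465-36049710), within Lyrm4, an iron-sulphur cluster assembly gene, met it 13.7 times as often as the mean of that distance. Of 46312 bin pairs at that distance, 3 were as high, 0.00648%. The group means were 15.5 at 3 h, 14.2 at 10 h, then 10.3 at imminent division against 15.0 at pre-S. Normalised read pairs were 65.4 and 72.8 at imminent division against 117 and 102 at pre-S, a log2 change of −0.66 (FDR 0.0217) that did not pass when any of these 4 libraries was left out, and that was −1.03 with bin coverage in the offsets (FDR 5.39e-06). Between 10 h and imminent division the change of this pair was −0.47 (FDR 0.0833). A bin within Fars2, which encodes the mitochondrial phenylalanyl-tRNA synthetase, followed at 9.08 times the mean.

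Cd180, the gene of the partner receptor and on the same chromosome, had the next largest share of contacts beyond 500 kb after Ly86. It met the bin 1800 kb before it at 11.4 times the mean of the distance (0.0239% of pairs as high) and the bin 950 kb before it, within Pik3r1, the regulatory subunit of phosphoinositide 3-kinase, at 11.1 times (8 of 46483 pairs, 0.0172%). The Pik3r1 pair stood at 14.1 at 3 h, then 8.19 at imminent division against 11.1 at pre-S, with 10 h just under the latter, and 0 of the 4 comparisons passed for it. Contacts beyond 500 kb made up 47.5% to 56.6% of the Ly86 contacts and 43.2% to 49.3% of the Cd180 contacts in the 8 libraries. The medians of all start bins were 26.8% to 29.3%. In Ticam1, by contrast, they were 10.7% to 12.4%, and in Irak2 12.8% to 15.8%.

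What passed at Cd180 was close to the gene. The adjoining bin, which Cd180 itself runs into and Mast4 (a serine/threonine kinase gene) overlaps, had 383 and 361 normalised read pairs at 3 h, 438 and 438 at 10 h, then 307 and 350 at imminent division against 344 and 351 at pre-S. The 10 h libraries were the highest. It fell by 0.41 on the log2 scale at imminent division (SE 0.0837, FDR 0.0012) and by 0.34 (FDR 0.0498) at pre-S. With TMM factors the changes were −0.76 and −0.54, against −0.32 and −0.16 once bin coverage entered the offsets (the latter with FDR 0.614). The bin 200 kb away, within Mast4, went from 109 and 89.9 at 10 h to 51.1 and 65.3 at imminent division (log2 −0.75, FDR 0.00269) and 64.1 and 55.1 at pre-S (−0.72, FDR 0.0391). These 4 calls passed in 6, 4, 6 and 4 of the 8 sets with 1 library left out, both imminent division calls being lost without imminent division replicate 1. Of the 20 tested partners on the higher-coordinate side 18 had a change below 0 at imminent division, and of the 40 on the lower-coordinate side 26 had one. Such counts by side were picked after the values were seen, and partners of the same start bin are not independent.

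**Figure D3:**
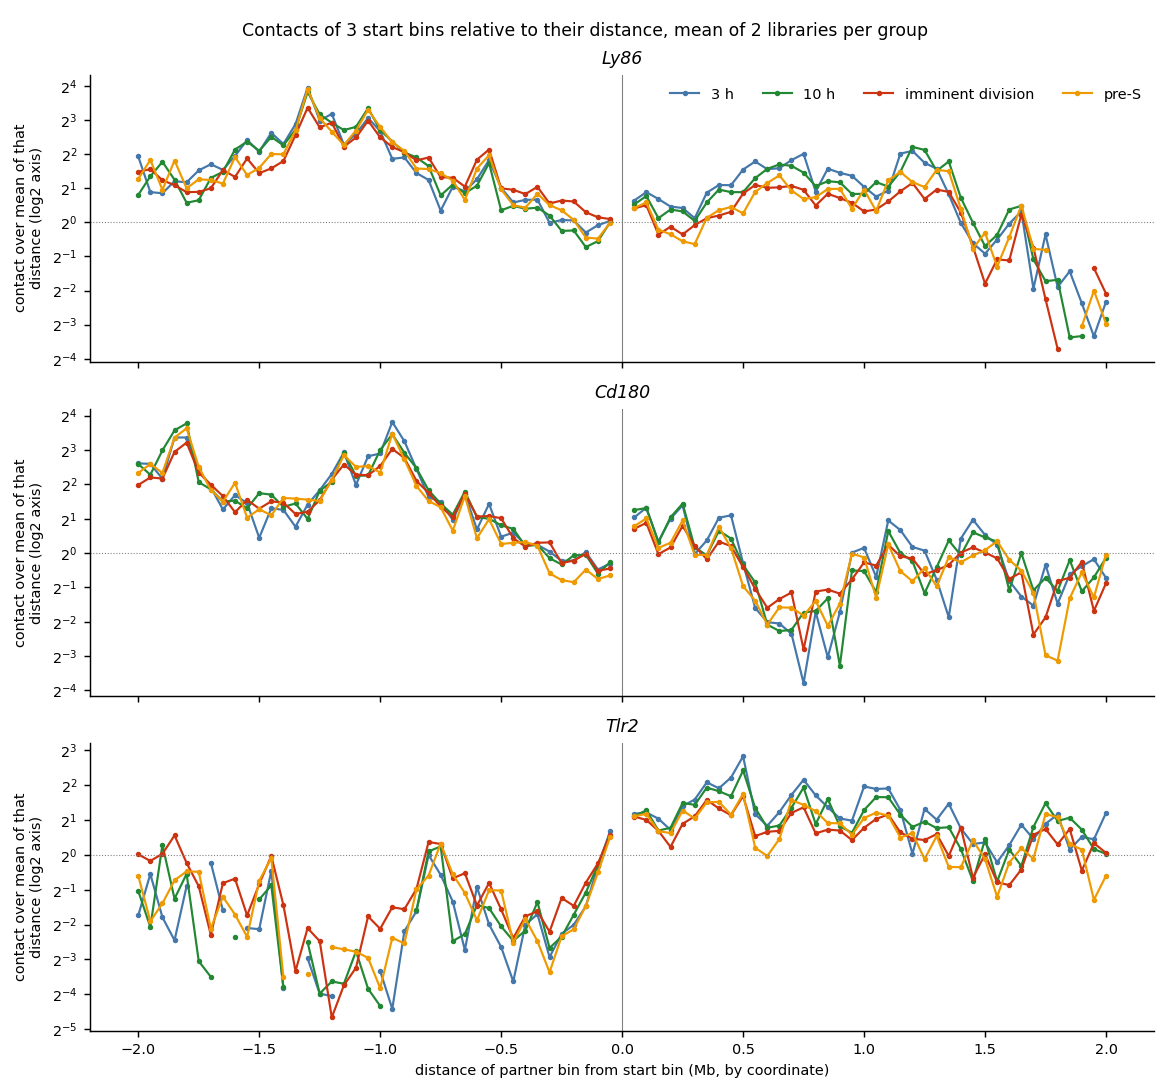
Contacts of the Ly86, Cd180 and Tlr2 start bins divided by the mean of all bin pairs at the same distance (vertical axis, log2 scale, 1 marks the mean) against the partner's distance by coordinate (Mb), as the mean of the 2 libraries of each group. Gaps are partners without read pairs. The Ly86 peak at 1300 kb and the Cd180 peaks at 950 kb and 1800 kb stand on the lower-coordinate side in all 4 groups.

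Tlr2 had its contacts on the higher-coordinate side, with only 20.4% to 21.7% on the lower side at 3 h and 10 h, then 27.0% and 27.8% at imminent division against 23.4% and 24.5% at pre-S. Its most frequent partner for its distance was the bin 500 kb away that holds the start of Trim2, a ubiquitin ligase gene, at 4.74 times the mean (0.445% of pairs as high). That pair had 146 and 119 normalised read pairs at 3 h, 102 and 104 at 10 h, then 65.2 and 72.7 at imminent division against 81.5 and 52.4 at pre-S. Each 33 h library was below each earlier one. The change from 10 h to imminent division was −0.58 (SE 0.155, FDR 0.0219), which missed the threshold when any of these 4 libraries was left out (FDR 0.0509 without imminent division replicate 2). The next bin, at 550 kb, changed by −0.83 (FDR 0.0289) at imminent division and by −1.18 (FDR 0.0203) at pre-S. The bin 850 kb away on the same side, which holds the start of Tmem154, changed by −0.99 at imminent division (FDR 0.0245). Of 33 tested partners on that side 30 had a change below 0 at imminent division, while of the 14 on the lower side 11 had one above 0.

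Among the signalling genes, all 3 passing pairs of Irak2, both of Ticam1 and the one of Myd88 were weaker at imminent division than at 10 h. Over all tested partners, 33 of 34 had a change below 0 at Ticam1, 31 of 42 at Irak2 and 32 of 51 at Myd88. At higher coordinates it was 22 of 22, 19 of 22 and 19 of 28 in the same order. Within 600 kb at lower coordinates, the limit set after the Ly86 values were seen, it was 11 of 12, 6 of 12 and 3 of 12. The pair of Irak2 with the bin 150 kb away, within Atp2b2, a plasma membrane calcium pump gene, had the smallest p of all. It had 94.1 and 61.3 normalised read pairs at 3 h, 77.4 and 96.7 at 10 h, then 43.6 and 42.0 at imminent division against 69.0 and 63.4 at pre-S. Both imminent division libraries lay below all other libraries, and the log2 change from 10 h was −1.04 (SE 0.179, FDR 4.46e-05, lost without 10 h replicate 2). The next bin towards the gene, 100 kb from Irak2, which holds the starts of Ghrl and of Sec13, a coat protein and nuclear pore gene, changed by −0.45 (FDR 0.00145, lost without 10 h replicate 2 and without imminent division replicate 2). The Irak2 pair with a bin within Rad18, a DNA damage ubiquitin ligase gene, changed by −1.63 (FDR 0.045) on 3 and 11 raw read pairs at imminent division.

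At Ticam1, 33 of 34 tested pairs had a change below 0 at imminent division (median −0.41), and 2 passed, while without imminent division replicate 2 it was 32 of 34 and 1 passed. The adjoining bin with the starts of Arrdc5, of Kdm4b, a histone demethylase, and of Uhrf1, which maintains DNA methylation, went from 348 and 392 at 10 h to 297 and 273 (log2 −0.39, FDR 0.00471, lost without 10 h replicate 2 and without imminent division replicate 2). The bin 300 kb away that holds Ebi3, a subunit of interleukin 27 and 35, and 3 other starts changed by −0.63 (FDR 0.0314). At pre-S a bin within Kdm4b changed by −0.59 (FDR 0.0385) and the bin with the start of Vav1, an exchange factor below the B cell receptor, by −1.54 (FDR 0.0444), the latter on 12 and 2 raw read pairs. Myd88 had 1 passing pair, with the bin that holds Mobp, Rpsa and Slc25a38 (log2 −1.02, FDR 0.0402), and Tlr9 had 3, with bins within Atp2c1 (−1.05, FDR 0.0364), within Col6a6 and Pik3r4 (−0.87, FDR 0.0405) and at Poc1a (−0.30, FDR 0.0421). With TMM factors 3 of the near pairs changed more at imminent division, by −0.74 for Irak2 with Ghrl and Sec13, −0.72 for Ticam1 with its adjoining bin and −0.65 for Tlr9 with Poc1a.

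Tlr4 and Cd14 each gained 1 pair on low counts. Tlr4 and a bin 600 kb away without protein-coding genes had 22.2 normalised read pairs in 3 h replicate 2 and fewer in replicate 1, 4.98 and 8.58 at 10 h, then 20.8 and 24.7 at imminent division against 14.6 and 6.49 at pre-S. The 10 h libraries were low and the 3 h libraries close to those of imminent division, and the log2 change between the latter and 10 h was 1.69 (SE 0.388, FDR 0.00502, lost without either 10 h library and without imminent division replicate 2). Of the 29 tested Tlr4 partners at higher coordinates 27 had a change above 0, and of the 15 at lower coordinates 6 had one. Cd14 and the bin 150 kb away had 5.41 and 11.1 at 3 h, 2.52 and 4.81 at 10 h, then 18.3 and 12.3 at imminent division against 5.53 and 5.04 at pre-S. The log2 change between 10 h and imminent division was 1.96 (FDR 0.0149). Here too the 10 h libraries were the lowest, and 3 h replicate 2 lay close to imminent division replicate 2. Of the 15 tested Cd14 partners at higher coordinates 12 had a change above 0, and of the 37 at lower coordinates 28 had one below 0. Every passing pair of Tlr4, Tlr2, Tlr9, Cd14 and Myd88 at imminent division lost its call without 10 h replicate 1, and likewise without 10 h replicate 2. The pre-S libraries held fewer read pairs than those of imminent division. In pre-S against 10 h 5 of the 482 pairs passed, all weaker and at 3 members (1.04%, beside 0.548% of all such pairs, 0.397% weaker, and 21.3% of start bins with 1). None of these 5 passed without either 10 h library or with bin coverage in the offsets, which gave 1 stronger pair and 0 weaker. In imminent division against pre-S 3 passed, all at Ly86 (0.622%, beside 0.34% and 13.5%). Without imminent division replicate 2, 1 of those 3 passed. Between 3 h and 10 h edgeR called 0 (0.00114% of all such pairs), with 40 at an unadjusted p under 0.05, and DESeq2 called 0.

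The boundary ratio compares a 100 kb region's contacts over 1 Mb on its lower-coordinate side with those on its higher-coordinate side, as a log2 ratio. Between 10 h and imminent division it changed for 8 of 10 members by more than 1.1-fold (edgeR glmTreat, FDR of 5%), all but Myd88 and Ticam1, against 18.1% of 23689 regions and 26.5% of regions with a gene start. All 8 passed without imminent division replicate 2. The ratio grew in size at Tlr4, Tlr9, Cd180 and Irak2 and shrank at Tlr2, Ly86, Ly96 and Cd14.

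The Ly86 region moved the most. Its log2 ratio was −0.90 and −0.80 at 3 h, −0.72 and −0.78 at 10 h, then 0.02 and 0.02 at imminent division against −0.14 and −0.13 at pre-S. Over 1 Mb on each side, a region with more contacts at higher coordinates became one with about equal contacts on both sides. The picture depends on the window and region. Within 2 Mb the start bin alone had 51.8% to 55.5% of its contacts at lower coordinates already at 3 h and 10 h. The boundary ratios of the groups at 33 h did not overlap the earlier ones. The difference from 10 h was 0.77 at imminent division (FDR 3.48e-22) and 0.61 at pre-S (FDR 2.73e-11), and both passed with every library left out. The Cd14 region was the most one-sided, with 2.86 and 2.83 at 3 h, 2.89 and 2.92 at 10 h, then 2.23 and 2.25 at imminent division against 2.60 and 2.75 at pre-S. It lost 0.67 at imminent division against 10 h (FDR 4.48e-09) and differed by −0.43 from pre-S (FDR 0.00394, lost without pre-S replicate 2).

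For Tlr2 the ratio went from −1.59 at 10 h to −1.19 at imminent division (FDR 1.74e-05), and for Cd180 from 0.39 to 0.74 (FDR 6.48e-05). The Ly96 ratio went from 0.73 at 10 h to 0.38 at imminent division (FDR 0.000481), beside 0.99 at 3 h and 0.48 at pre-S. Tlr9 crossed 0, from 0.15 to −0.25 (FDR 5.34e-06), and Irak2 went from 0.73 to 1.13 (FDR 2.01e-05), beside 0.99 at 3 h. The Irak2 ratio at imminent division also differed from pre-S by 0.34 (FDR 0.00687, lost without imminent division replicate 2 and without pre-S replicate 1). Tlr4 differed by −0.31 (FDR 0.0101, lost without 10 h replicate 2) at imminent division and by −0.38 (FDR 0.0103, lost without 10 h replicate 2 and without pre-S replicate 1) at pre-S. Myd88 and Ticam1 moved by 0.09 and 0.00. In pre-S against 10 h 2 members passed (4.81% of regions), in imminent division against pre-S 2 (5.53%), and between 3 h and 10 h 0 (0.388%), where 2 had an unadjusted p under 0.05 and no other tool was run.

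**Figure D4:**
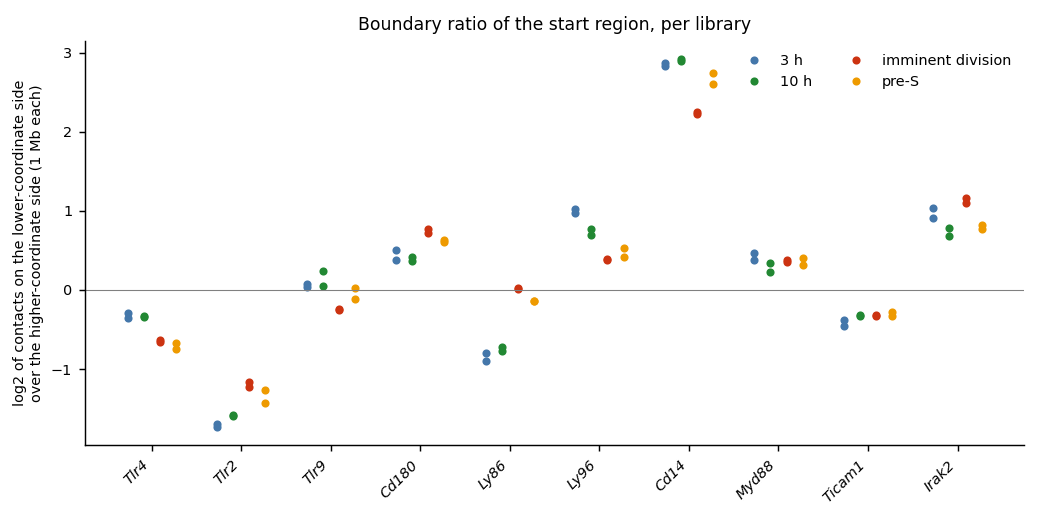
Log2 ratio of contacts on the lower-coordinate side over the higher-coordinate side, 1 Mb each, of the 100 kb region that holds each member's start (vertical axis), with 1 point per library and 2 per group. The Ly86 points move from between −0.90 and −0.72 at 3 h and 10 h to 0.02 at imminent division, and the Cd14 points come down to 2.23 and 2.25.

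The insulation score is the log2 of the contacts that cross a bin within 500 kb on each side, relative to the chromosome, so that a low score marks a place that separates its sides. Between 10 h and imminent division it fell at 6 of 10 members and rose at none (limma, FDR of 5%), although Myd88 passed as higher with crossing over within-side contacts (0.10, FDR 0.0347). Of all 46813 bins 66.5% passed, 22.4% as lower, and of the bins with a gene start 40.5% passed as lower. The members' median difference was −0.17 and that of all bins, most of which hold no gene start, 0.12. Without imminent division replicate 2, 4 of the 6 passed, and Cd180 (FDR 0.0505) and Cd14 (FDR 0.0927) did not.

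Ticam1, whose bin was crossed more often than 93.2% of bins, scored 1.05 and 0.89 at 3 h, 1.16 and 1.19 at 10 h, then 0.59 and 0.63 at imminent division against 0.82 and 0.91 at pre-S. Both imminent division libraries lay below all others, and its difference from 10 h was −0.56 (SE 0.057, FDR 1.83e-05). Irak2 scored 0.68 and 0.50 at 3 h, 0.60 and 0.70 at 10 h, then 0.07 and 0.12 at imminent division against 0.18 and 0.21 at pre-S, and fell by 0.55 (FDR 2.82e-05) at imminent division and by 0.46 (FDR 0.000242) at pre-S. Both 33 h groups lay below both earlier ones. Tlr2 changed by −0.40 (FDR 0.000413), Tlr9 by −0.38 (FDR 7.44e-05), Cd14 by −0.19 (FDR 0.0361) and Cd180 by −0.16 (FDR 0.0272). Of these 6, dividing by the contacts within each side ended the call of Tlr2 (−0.06, FDR 0.388) and turned Cd180 to 0.04 (FDR 0.501), and squares of 1 Mb on each side ended that of Cd14 (−0.09, FDR 0.204). Ticam1, Irak2, Tlr9 and Tlr2 passed with every library left out.

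Cd14 and Ly86 sat at the most insulated places, with mean scores of −1.05 and −0.96 that only 7.71% and 9.85% of bins went below. Ly86 scored −0.85 and −0.85 at 3 h, −0.99 and −0.86 at 10 h, then −0.95 and −0.76 at imminent division against −1.22 and −1.17 at pre-S. Its pre-S libraries were the lowest of the 8. The difference was −0.27 (FDR 0.0197, lost without 10 h replicate 2 and without either pre-S library) for pre-S against 10 h and 0.34 (FDR 0.0266) for imminent division against pre-S, and the latter was lost without imminent division replicate 2 (0.24, FDR 0.157). In pre-S against 10 h 7 members fell, the same 6 and Ly86 (59.5% of bins, 22.5% lower, and 41.2% lower of the bins with a gene start), and Tlr2, Cd180, Ticam1 and Irak2 passed there with every library left out. Dividing by the contacts within each side ended the pre-S calls of Tlr2 (FDR 0.178), Tlr9 (FDR 0.131), Ly86 (FDR 0.771) and Ticam1 (FDR 0.546). In imminent division against pre-S 3 passed (12.2% of bins), each lost with at least 3 of the libraries left out, with Ticam1 at −0.25 (FDR 0.0151) and Tlr9 at −0.19 (FDR 0.0259) beside Ly86, and 1 of the 3 without imminent division replicate 2. Between 3 h and 10 h limma called 0 (1.47% of bins), with 2 at an unadjusted p under 0.05.

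For compartments, the contact correlations of each library at 100 kb were reduced to their leading principal component, in units of its SD, where positive values mark the active A compartment. All 10 members lay in A in all 8 libraries, beside 47.3% of 23789 bins and 73.9% of 9890 bins with a gene start. The other 9 lay between 0.957 and 1.642, and Tlr4 lay near the border. Tlr4 had 0.058 and 0.029 at 3 h, 0.240 and 0.277 at 10 h, then 0.174 and 0.247 at imminent division against 0.222 and 0.287 at pre-S. The 3 h libraries were the lowest. Its value rose by 0.21 from 3 h to 10 h (limma, SE 0.0364, FDR 0.0097, lost when either 10 h library was left out), 1 of 10 members beside 3.22% of bins, and with the settings described here it was the sole call among the members between these times. With bin coverage in the offsets the Ly86 sum also passed there (log2 −0.21, FDR 0.0133). Other settings for insulation and boundary ratios called members there too, as counted at the end.

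Ly96 had 1.241 and 1.166 at 3 h, 1.139 and 1.148 at 10 h, then 0.970 and 1.050 at imminent division against 1.011 and 1.024 at pre-S. It fell by 0.13 at imminent division (FDR 0.0182, lost without imminent division replicate 1 and without either 10 h library) and by 0.13 at pre-S (FDR 0.0234, lost without either 10 h library and without either pre-S library), the one call of the 10 in each (22.8% and 24.7% of bins), and without imminent division replicate 2 the count was again 1 in each. Imminent division against pre-S gave 0 calls in limma (17.7% of bins) and 0 at an unadjusted p under 0.05. With 250 kb bins and with quantile normalization more members passed in some of these comparisons, as counted at the end.

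**Figure D5:**
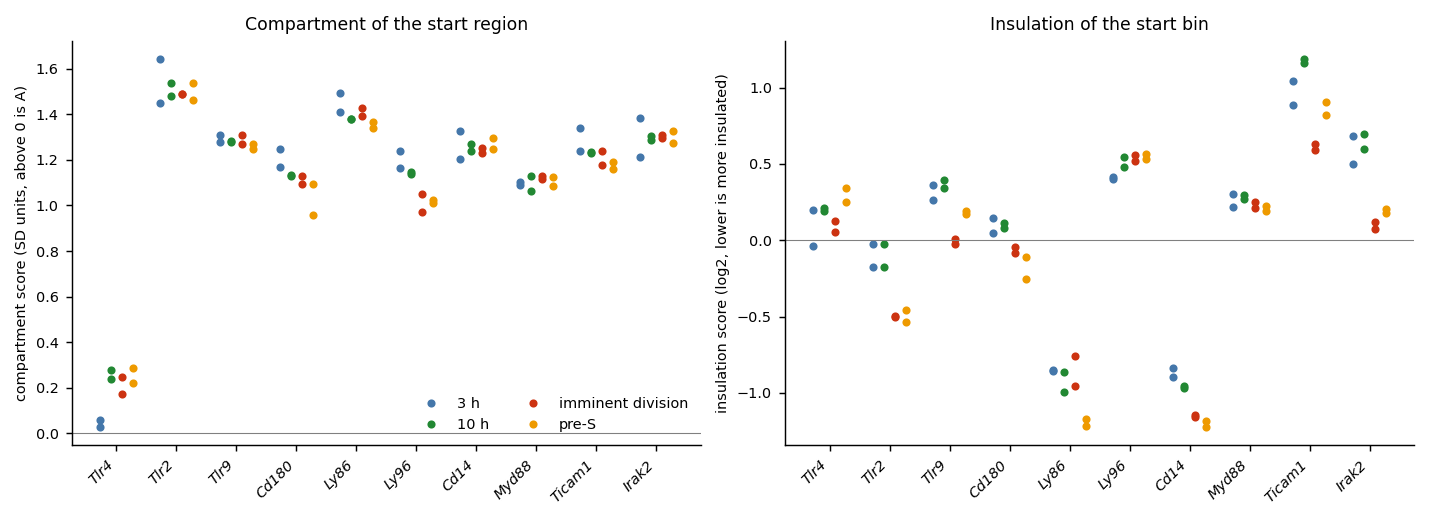
Compartment value in SD units (A above 0) and insulation score (log2, lower is more insulated) of each member's start bin, with points for the 2 libraries of each group. Tlr4 lies closest to 0 in the compartment panel, and the scores of Ticam1 and Irak2 fall by 0.56 and 0.55 from 10 h to imminent division.

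The rest of the pathway was read on the same summed contacts, over 44 listed genes of which 38 could be tested and 6 lie on X (Tlr7, Tlr8, Tlr13, Irak1, Tab3 and Ikbkg). Between 10 h and imminent division 12 passed, 1 higher and 11 lower, or 31.6%, below the 44.1% of all start bins. The median log2 change was −0.05. Without imminent division replicate 2, 11 passed, 2 higher and 9 lower. The higher one was Ube2n, which makes lysine-63 ubiquitin chains below TRAF6, with 2950 and 3027 at 10 h and 3394 and 3269 at imminent division (log2 0.16, FDR 0.00259). It also rose from 10 h to pre-S (0.16, FDR 0.00517). Over all cis distances 5 of the 38 were higher and 8 lower at imminent division, and with TMM factors 23 passed, 2 higher and 21 lower.

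Pik3ap1, the adaptor BCAP that links receptors to phosphoinositide 3-kinase, had 2241 and 2135 at 10 h and 1841 and 1788 at imminent division, a log2 change of −0.27 (FDR 5.99e-05). Unc93b1, which carries nucleic acid-sensing receptors such as TLR9 to endosomes, went from 2237 and 2265 to 1917 and 1905 (−0.24, FDR 0.000129). In both, the 2 groups were far apart relative to their replicates. Tlr12, a receptor for profilin, changed by −0.22 (FDR 0.000545), and Irf3, the transcription factor below TRIF, by −0.20 (FDR 0.000328). At pre-S 8 passed, 1 higher and 7 lower (21.1%, below the 37.3% of all start bins), against 21 with TMM factors, 19 with DESeq2 and 16 over all cis distances, and 3 without 10 h replicate 1 and likewise without pre-S replicate 1. Between imminent division and pre-S 1 passed (2.63%, below the 4.08% of all start bins). It was Irak3, an inhibitory member of the IRAK family, which was lower at imminent division (log2 −0.19, FDR 0.0238) and is named after its value was seen. With TMM factors, with DESeq2 and with the replicate block 0 genes passed there, while bin coverage gave 2 lower, contacts above the distance curve 3 lower, and all cis distances 6 higher and 1 lower. The call was also lost without either 10 h library, without imminent division replicate 2 and without either pre-S library. Between 3 h and 10 h 0 passed in edgeR and in DESeq2, with 4 and 3 at an unadjusted p under 0.05, beside 0.0679% of start bins in edgeR. Bin coverage in the offsets gave 1 higher and 1 lower there, and contacts above the distance curve 1 higher.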

How the data were processed

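The deposited files hold raw read-pair counts for pairs of 50 kb bins, 1 symmetric matrix per library. Per the study's methods, the authors aligned reads to mm10 with diffHic, marked duplicates and removed dangling ends and long fragments. Bins were rebuilt from MboI fragments of GRCm38 (53357, as in each matrix), and 756 of 48088 autosomal bins with over 10% undetermined sequence or coverage beyond 4-fold of the median were left out. The list of excluded regions named in the study was not used. GENCODE M21 gave gene starts. Depth limits pairs with few reads most, and without molecular identifiers a read pair may repeat a molecule.

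Summed contacts (at least 200 counts) and bin pairs (at least 10 counts, over 4-fold the interchromosomal background) were tested in R 4.3.3 by edgeR 4.0.16 (quasi-likelihood, loess offsets, all 8 libraries in a one-way layout, Benjamini-Hochberg over all bins or pairs tested). Boundary ratios used glmTreat, and compartments and insulation used limma 3.58.1. DESeq2 1.42.0 and the other settings were alternatives. The scripts were tested on simulated data. Members, lists and tests were chosen with earlier results of these data known. Named partners were the 3 with the smallest p per member, and pathway genes the 4 with the largest change in each direction at imminent division.

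Replicate numbers were not taken as pairs, since the correlation of deviations between same-numbered libraries ran from −0.442 to 0.137 over the pairs of groups.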

Additional observations from a re-analysis of the deposited data

How the results depend on the processing

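Summed contacts changed sign at imminent division against 10 h for Ly86 with TMM factors (−0.0275) and DESeq2 (−0.0221). There Tlr2 turned over all cis distances (0.12, FDR 0.00782) and Cd180 with bin coverage in the offsets (0.07). At pre-S the sign changed for Ly86 with TMM factors (−0.0238) and DESeq2 (−0.0157) and for Cd180 with bin coverage (0.09). Over all cis distances Tlr2 (0.08) and Cd14 (0.05) turned at pre-S, as did Cd14 with contacts above the distance curve (0.10). The list is not complete, since other sums that had changed little turned too. The Tlr4 compartment difference at pre-S turned to 0.11 with quantile normalization (FDR 0.0266). Insulation turned with crossing over within-side contacts at imminent division for Cd180 (0.0382) and Myd88 (0.10, FDR 0.0347) and at pre-S for Tlr4 (−0.15, FDR 0.000492), and for Ly86 at imminent division over 1 Mb on each side (−0.25, FDR 0.00809), where the values given with an FDR passed. The causes were not tested.

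Members passing on summed contacts numbered 1 at 10 h with bin coverage in the offsets, 3 at imminent division and 1 at pre-S with contacts above the distance curve, and at pre-S 5 with TMM factors, 5 with DESeq2 and 4 over all cis distances. For compartments, 250 kb bins gave 4, 3 and 1 in the last 3 comparisons, and quantile normalization 2 at pre-S and 1 between the 33 h groups. For insulation, crossing over within-side contacts gave 3 at 10 h and 4 at pre-S, and between the 33 h groups 250 kb on each side gave 1. Boundary ratios without a fold threshold gave 2 at 10 h, 6 at pre-S and 4 between the 33 h groups. Bin pairs passing at imminent division were 41 with TMM factors, 51 with bin coverage, 0 with DESeq2 and 13 at 2-fold over background. At pre-S they were 9, 1, 0 and 0, and between the 33 h groups 14 with bin coverage, 0 with DESeq2 and 0 at 2-fold.

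With the replicate block, insulation between the 33 h groups gave 1 member in place of 3, and bin pairs gave 23, 4 and 2 in place of 25, 5 and 3. In the pathway list it gave 0 genes in place of 1 between the 33 h groups. The block moved no other of these counts by over 1.5 times.

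Leaving out 1 library at a time gave, in the order of the 4 comparisons, 0 to 0, 4 to 6, 0 to 3 and 0 to 0 members for summed contacts, 0 to 3, 0 to 1, 0 to 1 and 0 to 0 for compartments, 0 to 1, 4 to 7, 4 to 7 and 0 to 5 for insulation, and 0 to 0, 7 to 8, 1 to 2 and 1 to 2 for boundary ratios. Bin pairs ranged over 0 to 0, 4 to 32, 0 to 6 and 0 to 4. A group left with 1 library was assumed to vary like the others.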
